A study of Homo sapiens with 6 samples.

Results

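Of the 9588 gene names in a table of 3′ end regions from human embryonic stem cells and endoderm, 711 named several regions on 1 chromosome and strand. These 711 genes, picked by a rule that reads names and positions and no signal values, held 1483 of the 14686 regions. A region is a short genomic interval in which the reads of libraries of RNA 3′ ends gathered. Whether each region marks a true end of a transcript was not tested, and regions are called ends below only for short. The last region of a gene in the direction of transcription is called distal here. The other regions of the gene are upstream regions, and the distal share is the signal of the distal region as a percentage of the signal of all regions of the gene.

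The cells were H9, an established line of human embryonic stem cells (hESCs), at passage 51, grown on growth factor reduced matrigel in conditioned medium. One group of 3 libraries came from the undifferentiated cells (day 0), labelled G1 at 0 h, G1/S at 2 h and S at 3 h. The other 3 libraries came from endoderm made from them over 6 days in RPMI medium with 100 ng/ml activin A and serum that was raised in steps, labelled G1 at 0 h, G1/S at 3 h and S at 6 h. The sources used here do not give how the cells were brought into phase or what marks 0 h. Where 3 values of a type stand in a row, they follow the order of the phases just given. Each type and phase has 1 library, all from 1 line and 1 passage, and medium and serum differ along with cell type. The p-values therefore rest on no replicates. Their spread is what terms for type and phase leave over these 6 libraries, moderated over the genes or regions fitted. A difference in phase course between the types, whose hours differ at G1/S and S, counts as part of that spread.

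Most human genes carry more than 1 site at which the transcript can be cleaved and polyadenylated. Cleavage follows a hexamer, most often AAUAAA, that the CPSF complex binds a short way upstream of the cut, with CSTF, CFI and CFII as partners and poly(A) polymerase adding the tail. Ends within the last exon change the length of the 3′ untranslated region and the sites it offers to miRNAs and RNA-binding proteins, while ends within introns can change the protein, and shifts toward upstream ends are well known in proliferating cells and shifts toward distal ends in differentiation.

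The ends of transcripts are shown for 5 genes described below whose 2 regions lie as far apart as 2 annotated transcript ends. The 5 are the named genes whose distance matches an annotated one within 25 bases and that have at most 10 annotated distances within 1000 bases of it. NFU1, AIF1 and DUSP1 had no match, and CPSF3L matched (7078 against 7076 bases) but has 30 such distances; the deposited positions belong to another build than the annotation, so the match rests on the distance alone. Each sequence is the last 30 bases of a GENCODE v29 transcript (GRCh38), 5′ to 3′, with the hexamer AATAAA or ATTAAA in capitals where the script found it on the transcript strand.
GLG1 upstream end: caaaaaaaaaaatttttttaaagaaaaaaa
GLG1 downstream end: gaaagttatcacATTAAAagatggaggatt
CNOT3 upstream end: aaatggggggaagaccacctacctaatgca
CNOT3 downstream end: aaatatttatgAATAAAtagttttatatga
GRK6 upstream end: agaAATAAAgataattcacaaaaaggaaaa
GRK6 downstream end: tttttccatatttaaagccaatttttatta
C17orf80 upstream end: ataaagAATAAAattattggaatctaaaat
C17orf80 downstream end: tccgccactcttcatAATAAAattatttgt
ABCC3 upstream end: acgtggacccaaacaatgtgctggacgccg
ABCC3 downstream end: tgatgaAATAAAactacatggtcaacagta

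The 2 ends of GLG1 lay 831 bases apart in the annotation and 830 bases apart in the data. For CNOT3 the distances were 1226 and 1229 bases, for GRK6 6145 and 6130, for C17orf80 3603 and 3599, and for ABCC3 23779 and 23772. A hexamer stood in these 30 bases at the downstream end only for GLG1, CNOT3 and ABCC3, at the upstream end only for GRK6, and at both ends for C17orf80. The annotation types the upstream GLG1 transcript and the downstream ABCC3 transcript as nonsense-mediated decay and the others as protein coding. Of 63433 annotated transcript ends outside chromosome 8, 41.5% held AATAAA or ATTAAA in the last 30 bases. Over all members found in the annotation, 63 of 705 genes had an annotated distance within 25 bases of the distance between their first and last region, and 35 of the 705 had only 1 annotated end. How many would match by chance was not tested.

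Depth ran from 2502792 reads in endoderm S to 6203079 in hESC S, and the members took between 9.43% and 10.4% of them. The deposited values are reads divided by 1 size factor per library and are called signal; 1 read is worth 0.591 in hESC S and 1.71 in endoderm S, the ends of the range, and where no read was seen a signal of up to 1.77 to 5.13 remains possible (3 reads, counting error only). A signal counts read ends and is not divided by length. In bulk libraries, fewer cells with an end and less of that end per cell cannot be told apart. Of 11 measured markers of definitive endoderm, 10 were higher in endoderm and 0 lower (limma, adjusted p under 0.05), with a median log2 difference of 4.44, where 6.9% of all regions were higher and 7.6% lower. Of 11 measured hESC markers, 1 was higher and 3 lower, with a median of 0.41. Among markers of other cells, PAX6 and 1 of 4 measured stromal genes were higher, 2 stromal and 2 trophoblast genes (TFAP2C and KRT7) were lower, and 0 of 2 mesoderm genes passed.

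Most members had the simplest layout. There were 656 genes with 2 regions, 50 with 3, 4 with 4 and 1 with 5. The median distance from the first to the last region was 13214 bases, and it was at most 1000 bases in 39 genes, at most 10000 in 295 and at most 100000 in 668. RefSeq gave a gene length for 703 of the 711, with a median of 44830 bases against 24682 bases for the 8424 matched names with 1 region. In 46 of the 703 the regions lay further apart than that gene length, so at least 1 region of each lies outside that extent. Of the member regions 92 of 1483 (6.204%) overlap a region on the opposite strand, with 10.7% of the distal regions and 2.07% of the others, against 7.93% of the regions of names that have 1.

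The distal region was the more abundant one in most members. Its mean signal was the highest of the gene in 489 of 711 genes (68.8%), and the median of the mean distal share was 68.0%. The share was above 90% in 166 genes, below 10% in 43 and between in 502. The median mean signal was 81.6 over distal regions and 25.9 over the other member regions, with 72.6 for names that have 1 region. Many members therefore combined 1 well covered end with 1 that rested on few reads.

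**Figure D1:**
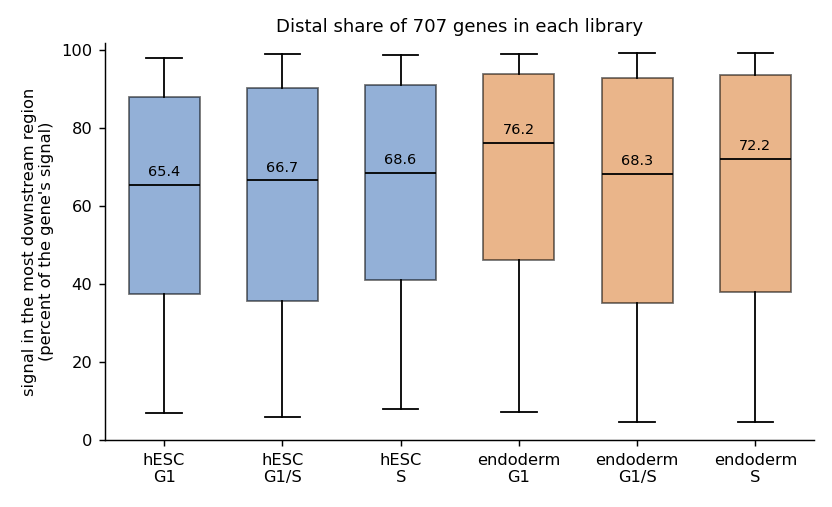
Distal share (percent of a gene's signal) of the 707 genes tested, by library; the box spans the middle of the genes from the lower to the upper quartile, the line and number are the median and the whiskers reach the 5th and 95th percentiles. Medians run from 65.4% (hESC G1) to 76.2% (endoderm G1), and the boxes of all libraries overlap widely.

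The median distal share over all 711 genes was 65.4%, 66.9% and 68.6% in hESC and 76.5%, 69.2% and 72.7% in endoderm. The 3 endoderm medians stood above the 3 hESC medians, with endoderm G1 furthest from the rest. The order did not hold where both parts of the gene were well covered: over the 163 genes with a mean signal of at least 50 in the distal region and in the others together, the medians were 56.7%, 60.6% and 60.7% in hESC and 63.9%, 58.5% and 56.5% in endoderm. With all reads of the members pooled, the distal share was 69.6%, 73.3% and 73.9% in hESC and 71.1%, 72.3% and 68.8% in endoderm.

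The genes with most regions showed how unequally a gene's signal could be spread. PKM2, in the table the older symbol of the whole pyruvate kinase M gene with all its isoforms, had 5 regions over 29405 bases, and its distal region held 94.3%, 99.2% and 96.4% of the signal in hESC and 98.3%, 98.1% and 97.4% in endoderm. That distal region rose from 7916 ± 3785 to 16525 ± 4624 (mean signal ± SD, n = 3 libraries per type; limma over all regions, adjusted p = 0.016), and 0 of the 4 upstream regions passed the test. TPM1, an actin-binding tropomyosin with alternative last exons, had its highest signal not at the distal region but at the third of 4, which rose from 971 ± 656 to 2552 ± 1194 (adjusted p = 0.0329). The distal region of TPM1 held 16.3%, 25.7% and 33.0% of the gene's signal in hESC and 17.9%, 18.4% and 13.1% in endoderm, shares that overlap. It shares 180 bases with a region without a gene name on the opposite strand, whose part was not tested. Both calls were lost without hESC G1/S (adjusted p = 0.0909 for PKM2, 0.131 for TPM1), hESC S (0.0872, 0.104), endoderm G1/S (0.074, 0.119) or endoderm S (0.0584, 0.092), and that on PKM2 under quantile normalisation (0.0591). Both were also lost with no intensity trend (0.095 and 0.105) and with no phase term (0.065 and 0.0705).

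PML, the scaffold of PML nuclear bodies and a gene with several alternative C termini, had its largest signal at the second of 4 regions. That region fell from 703 ± 188 to 350 ± 35.9 (limma, adjusted p = 0.0499), while the distal share stayed between 7.68% and 14.1% over the 6 libraries. That call was at the threshold and was lost in each of the 6 fits that leave out 1 library (adjusted p from 0.0558 without endoderm S to 0.188 without hESC G1/S), with no intensity trend (0.133), with no phase term (0.0754) and with no filter (0.0501). FLT1, a VEGF receptor with a secreted form that ends early, had 4 regions over 106686 bases, and its distal share was 37.7%, 6.06% and 5.04% in hESC and 42.9%, 66.7% and 64.3% in endoderm. The groups do not overlap, but the usage test did not pass (adjusted p = 0.149) and none of the 4 regions had a mean above 21.6 in either type. FBXL10, a histone demethylase also known as KDM2B, had a distal share of 11.7%, 24.1% and 9.62% in hESC and 6.78%, 5% and 4.35% in endoderm (adjusted p = 0.231).

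The 5 members of highest summed signal were GNB2L1, PKM2, BSG, TPM2 and FLNA. In GNB2L1, the ribosome-bound scaffold RACK1, in BSG, the membrane glycoprotein basigin, and in FLNA, the actin crosslinker filamin A, the distal share was at least 98.6% in every library. TPM2, a second tropomyosin, had the reverse layout, with a distal share between 6.82% and 20.2%. Its distal region rose from 583 ± 153 to 1392 ± 488 (limma, adjusted p = 0.0175), while the upstream region had 6333 ± 1264 and 8911 ± 3432 (adjusted p = 0.342). Without hESC G1/S the adjusted p of the distal region was 0.105, without endoderm G1/S 0.102 and with no intensity trend 0.0745. The difference in usage itself did not pass in TPM2 (0.80 ± 0.55 on the log2 scale, adjusted p = 0.424).

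The closest pairs of regions lay 211 bases apart in SSU72, 249 in MED8 and 262 in SUMO3. SSU72, a phosphatase that acts in 3′ end processing, had a distal share of 3.87%, 4.61% and 3.47% in hESC and 4.61%, 5.82% and 6.90% in endoderm. In MED8, a Mediator subunit, the share ran from 3.45% to 19.7%, and in SUMO3, a ubiquitin-like modifier, from 52.1% to 86.1%. None of the 3 passed the usage test (limma, lowest adjusted p = 0.485).

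The 3 farthest pairs were all genes of the major histocompatibility region on chromosome 6. The 2 regions of PSMB9 lay 28925046 bases apart, those of TAP1 28913946 and those of AIF1 28858582, all far beyond the length of the genes (1782 bases for AIF1 in RefSeq). PSMB9 is a subunit of the immunoproteasome and TAP1 part of the peptide transporter. The distal region of PSMB9 had 31.8, 42.7 and 33.7 in hESC and 4.83, 4.99 and 1.71 in endoderm, a fall without overlap (limma, adjusted p = 0.0152; without hESC G1/S 0.0811, hESC S 0.0785, endoderm G1/S 0.0618). Neither region of TAP1 passed. Both regions of such a pair cannot lie within 1 gene of that length. For these 3 genes upstream and distal are therefore only an order of positions, and their distal share is not the share of 1 transcript's ends.

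The comparison of endoderm with hESCs asks whether the share of a gene's signal in the distal region differs between the differentiated and the undifferentiated cells. It was tested as the log2 ratio of distal signal to the signal of the other regions, with 1 added to each, in 707 of the 711 genes; the other 4 had fewer than 2 regions with log2(signal + 1) of at least 1 in at least 3 libraries. Of the 707 genes, 3 passed (0.424%; limma with a phase term, adjusted p under 0.05). Distal usage rose in DUSP1 and fell in NFU1 and AIF1. The regions of DUSP1 and, by far more, those of AIF1 lay further apart than the RefSeq length of the gene. At an unadjusted p under 0.05 there were 148 genes (20.9%), 98 with higher and 50 with lower distal usage in endoderm.

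**Figure D2:**
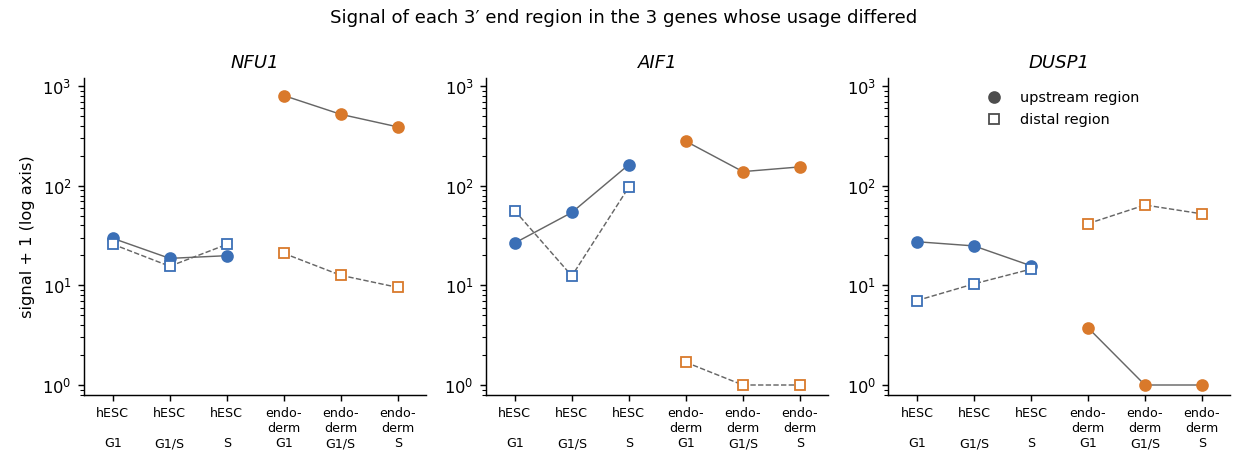
Signal + 1 (log axis) of the upstream region (filled circles) and the distal region (open squares) of NFU1, AIF1 and DUSP1 in each library, hESC in blue and endoderm in orange. In NFU1 the upstream region is above its hESC level in all 3 endoderm libraries, in AIF1 the distal region is at 1 read or fewer in endoderm, and in DUSP1 the 2 regions change places.

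NFU1, which helps to place iron-sulfur clusters on mitochondrial enzymes, had 2 regions 42168 bases apart, or 96.2% of the gene's RefSeq length. The nearest distance between 2 annotated ends of NFU1 was 15053 bases, and whether both regions lie within the gene was not tested. The upstream region (chr2:69518944-69519282, minus strand, as deposited; the notes name hg18) had a signal of 28.7, 17.7 and 18.9 in hESC and 807, 522 and 390 in endoderm. The distal region (chr2:69476776-69476951) had 25.0, 14.6 and 24.8 in hESC and 20.02, 11.6 and 8.56 in endoderm. The upstream signal of the 2 types did not overlap and was far higher in endoderm, while the distal signals overlapped.

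The upstream region of NFU1 rose by a log2 difference of 4.62 ± 0.30 (SE; limma over all regions, adjusted p = 0.00135) and the distal region did not pass (adjusted p = 0.358). The distal share was 46.5%, 45.2% and 56.8% in hESC and 2.42%, 2.18% and 2.15% in endoderm, a difference in log2 usage of -5.30 ± 0.53 (adjusted p = 0.0107). Without endoderm G1 the adjusted p of this usage difference was 0.0623, without hESC G1/S 0.0526 and without endoderm G1/S 0.0534, at a difference of -5.42, -5.40 and -5.40. The call on the upstream region itself held in 6 of 6 such fits. These are not 6 separate checks, since fits without either library of a phase give the same difference (-5.40 in usage without either G1/S library).

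AIF1, a calcium-binding protein best known from macrophages, had an upstream region at chr6:2833815-2834164 (plus strand) with a signal of 25.7, 53.1 and 162 in hESC and 280, 138 and 154 in endoderm. Its distal region at chr6:31692543-31692746 had 73, 11 and 163 reads in hESC (signal 55.2, 11.5 and 96.3) and 1, 0 and 0 reads in endoderm. The distal signals of the types did not overlap, and those of the upstream region did, with hESC S above endoderm G1/S and endoderm S. The distal region fell (log2 difference -5.10 ± 0.81, adjusted p = 0.0104, by limma).

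The distal share of AIF1 was 68.2%, 17.7% and 37.2% in hESC and 0.246%, 0% and 0% in endoderm, a usage difference of -6.66 ± 0.78 (adjusted p = 0.0167). At so few reads the size depends on the added 1 and is no bound. All 350 bases of the upstream region lie within a region of SERPINB9, a serpin, on the opposite strand. That SERPINB9 region had a signal of 52.2, 80.2 and 168 in hESC and 405, 208 and 291 in endoderm. The upstream region also lies 28858582 bases from the distal one, so the usage difference is not one between ends of 1 gene. The part of that neighbour in the AIF1 value was not tested. Without hESC G1/S the adjusted p was 0.0526 (difference -7.49), and without endoderm G1 it was 0.0623 (difference -5.76). The call on the distal region was lost without hESC S (adjusted p = 0.0705, log2 difference -4.35).

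DUSP1, a phosphatase that switches off MAP kinases and is itself induced by stress and growth factors, was the only member with 1 region called higher and another called lower. The upstream region (chr5:172131861-172132014, minus strand) had a signal of 26.5, 23.9 and 14.8 in hESC and 2.76, 0 and 0 in endoderm (4, 0 and 0 reads), where a count of 0 allows 4.99 in G1/S and 5.13 in S. The distal region (chr5:172127714-172127954) had 6.05, 9.37 and 13.6 in hESC and 40.7, 63.2 and 51.3 in endoderm. Neither region overlapped between the types, and the more abundant of them was the upstream one in each hESC library and the distal one in each endoderm library.

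The upstream region of DUSP1 fell (log2 difference -3.83 ± 0.80, adjusted p = 0.023) and the distal region rose (2.35 ± 0.43, adjusted p = 0.0165, both by limma). The distal share was 18.6%, 28.1% and 47.9% in hESC and 93.7%, 100% and 100% in endoderm. This gave a usage difference of 6.18 ± 0.80 (limma, adjusted p = 0.0207). With so few upstream reads in endoderm, its size depends on the added 1 and is no bound. The 2 regions lay 4147 bases apart, which is 134% of the RefSeq gene length, so at least 1 lies outside that extent. GENCODE v29 gave DUSP1 only 1 transcript end. Its distal share is therefore not known to be the share of 1 gene's ends. The distal region shares 53 bases with a region without a gene name on the opposite strand, whose signal was 0.757, 4.16 and 4.13 in hESC and 18.0, 44.9 and 22.3 in endoderm; its part in the result was not tested.

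The usage call of DUSP1 was lost without hESC G1 (adjusted p = 0.0595, difference 6.55), hESC G1/S (0.0531, 5.63), endoderm G1 (0.0647, 6.55) or endoderm G1/S (0.0534, 5.63), and by edgeR on whole reads (0.283). The edgeR difference, of the distal region against the gene as a whole, was 1.72 on the log2 scale, which is another quantity than the ratio of 6.18 above. Its regions lost their calls without hESC G1/S (upstream, adjusted p = 0.0998, log2 difference -3.42; distal, 0.0861, 2.20) or endoderm G1/S (0.0788, -3.42; 0.0912, 2.20), and the upstream one also without hESC S (0.091, -3.75). NFU1 was the only gene of the 3 to remain where genes with a region that overlaps one on the opposite strand were left out. It was also the only one where genes with regions further apart than the RefSeq length were left out. The latter compares lengths only, not positions.

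**Figure D3:**
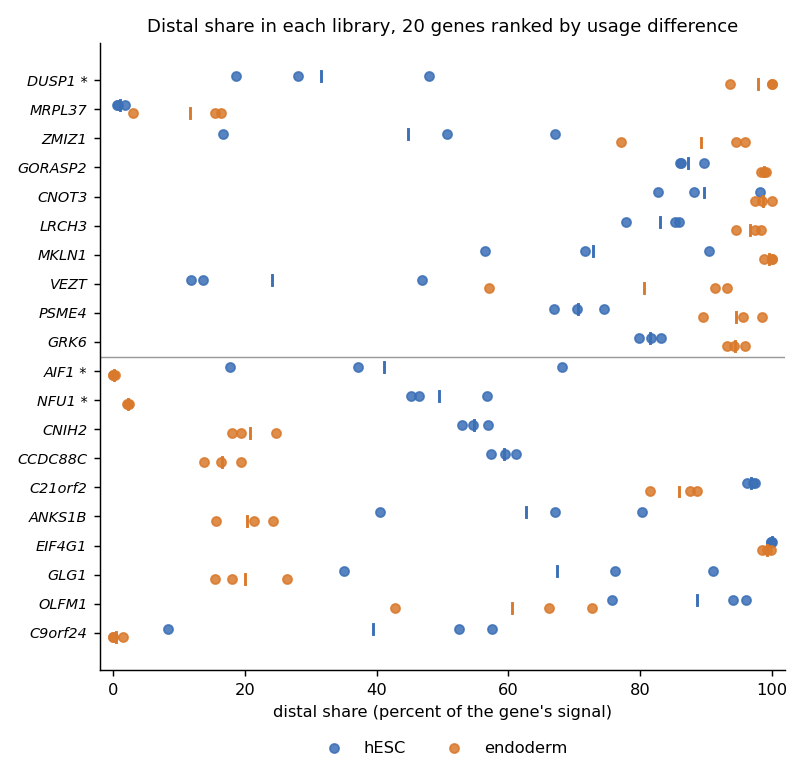
Distal share (percent of the gene's signal) in each library (points) with the mean of the 3 libraries of a type (bars), hESC in blue and endoderm in orange, for the 10 genes of higher and the 10 of lower distal usage named by a fixed rule; a star marks the 3 that passed (adjusted p under 0.05). The 2 types do not overlap in 18 of the 20 genes, which were chosen by this same difference (24.8% of all 707 tested).

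The genes next in rank by p had differences of similar direction in each phase but did not pass after adjustment over 707 genes. On the side of higher distal usage these were MRPL37, ZMIZ1, GORASP2, CNOT3, LRCH3, MKLN1, VEZT, PSME4 and GRK6, with adjusted p between 0.0717 and 0.0805 (limma). In several of them 1 of the 2 regions passed the fit over all regions. In MRPL37, a protein of the large mitochondrial ribosomal subunit, the distal region rose from 21.2, 25.0 and 44.9 in hESC to 374, 99.8 and 416 in endoderm (adjusted p = 0.00742). The groups do not overlap, and the upstream region, at 2049 to 3730 in the 6 libraries, held most of the signal throughout. That distal region lies within a region of SSBP3 on the opposite strand, with 119.5, 76.0 and 169 in hESC and 380, 256 and 354 in endoderm, whose part in the value was not tested.

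In 4 of these genes the upstream region fell while the distal one did not pass. In GRK6, a kinase that desensitises G protein-coupled receptors, the upstream region had 148, 235 and 123 in hESC and 51.8, 88.2 and 41.1 in endoderm (log2 difference -1.49 ± 0.30, limma adjusted p = 0.0211). The annotated end matched to that region, by distance alone, carries the AATAAA shown above. The distal region of GRK6 had 732, 934 and 546 in hESC and 713, 1439 and 989 in endoderm, so the groups overlap there. The upstream region of LRCH3, a leucine-rich repeat protein, fell from 45.4 ± 7.17 to 6.85 ± 6.02 (adjusted p = 0.0172). That of PSME4, the proteasome activator PA200, fell from 29.3 ± 6.98 to 5.64 ± 3.48 (adjusted p = 0.0341), and that of GORASP2, which stacks Golgi cisternae, from 17.9 ± 6.19 to 2.37 ± 0.85 (adjusted p = 0.0451).

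Other genes of this side had a distal region that rose. ZMIZ1, a transcriptional coactivator, went from a distal share of 67.1%, 16.7% and 50.7% in hESC to 95.9%, 77.1% and 94.6% in endoderm, and its distal region from 23.2 ± 18.6 to 72.4 ± 24.2 (limma, adjusted p = 0.0342). VEZT, a protein of adherens junctions, had shares of 46.9%, 11.8% and 13.6% in hESC and 91.3%, 57.1% and 93.2% in endoderm, and its distal region rose from 7.78 ± 8.42 to 49.7 ± 31.6 (adjusted p = 0.0452). In both genes each G1/S library had the lowest distal share of its type. CNOT3, a subunit of the deadenylase that shortens poly(A) tails, had shares of 88.2%, 98.2% and 82.7% against 97.5%, 100% and 98.6%, which overlap, and neither of its regions passed. Its distal region shares 10 bases with a region of LENG1 on the opposite strand, whose part was not tested.

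On the side of lower distal usage the next genes were CNIH2, CCDC88C, C21orf2, ANKS1B, EIF4G1, GLG1, OLFM1 and C9orf24, with adjusted p between 0.0805 and 0.0977 (limma). GLG1, a Golgi glycoprotein, had a distal region with 732, 49.98 and 1466 in hESC and 84.2, 34.9 and 70.2 in endoderm, a fall of 2.66 on the log2 scale that passed (limma, adjusted p = 0.0371). Without either S library the difference was -1.80, and the call was lost there, at a mean of at least 50 (0.0521), with no intensity trend (0.095) and with no phase term (0.0919). The upstream region of GLG1 had 229, 92.7 and 144 in hESC and 234, 191 and 320 in endoderm (adjusted p = 0.156). The annotated downstream end, matched by distance alone, carries the ATTAAA shown above and the upstream one neither hexamer. The hESC G1/S library was the one hESC library in which the distal region of GLG1 was the smaller.

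In CNIH2, an auxiliary protein of AMPA receptors, the distal region fell from 349, 770 and 308 in hESC to 84.9, 175 and 142 in endoderm (limma, adjusted p = 0.0146), while the upstream region had 393 ± 215 and 526 ± 233 (adjusted p = 0.226). Its distal share was 54.8% ± 1.93 in hESC and 20.7% ± 3.50 in endoderm, with regions 6737 bases apart, or 112% of the gene's RefSeq length. CCDC88C, a regulator of Wnt signalling, showed a like pattern, with a distal share of 59.3% ± 1.90 in hESC and 16.5% ± 2.83 in endoderm and a distal region that fell from 46.0 ± 6.05 to 13.3 ± 1.47 (adjusted p = 0.0333). In OLFM1, a secreted olfactomedin of neural tissue, the distal region fell from 316, 55.2 and 384 to 35.2, 9.98 and 27.4 (adjusted p = 0.00483).

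In ANKS1B and C21orf2 the upstream region rose instead. That of ANKS1B, an ankyrin repeat protein of synapses, had 31.0, 25.0 and 18.9 in hESC and 428, 479 and 370 in endoderm (log2 difference 4.06 ± 0.31, limma adjusted p = 0.00172). The distal region of ANKS1B had 21.2, 51.0 and 76.8 in hESC and 117, 88.2 and 118 in endoderm (adjusted p = 0.0878). It shares 53 bases with a region of APAF1 on the opposite strand, whose part was not tested. The upstream region of C21orf2, a ciliary protein, rose from 9.51 ± 1.11 to 54.8 ± 24.4 (adjusted p = 0.0193), with a distal share of 96.9% ± 0.65 in hESC and 85.9% ± 3.85 in endoderm. The regions of C21orf2 lay 11323 bases apart, or 108% of its RefSeq length, so at least 1 lies outside that extent. EIF4G1, the scaffold of the cap-binding complex, kept a distal share of at least 98.5% in every library. Its distal region shares 65 bases with a region without a gene name on the opposite strand, whose part was not tested.

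The calls on the regions of NFU1, MRPL37, ANKS1B and OLFM1 held when any 1 library was left out. Fits without either library of a phase give the same difference and vary only in the estimated spread, so they are not separate checks. Without hESC G1/S the calls on CCDC88C (adjusted p = 0.152), CNIH2 (0.0921), C21orf2 (0.0935), GORASP2 (0.142), GRK6 (0.0987), LRCH3 (0.0957), PSME4 (0.0895), VEZT (0.0851) and ZMIZ1 (0.145) were lost. The same 9 were lost without endoderm G1/S, with adjusted p from 0.0738 for LRCH3 to 0.147 for ZMIZ1. Without hESC S those on CCDC88C, GORASP2, GRK6, LRCH3, PSME4, VEZT and ZMIZ1 (0.0726 for GRK6 to 0.172 for PSME4) and on GLG1 (0.0895) were lost. Without endoderm S all of these but LRCH3 were lost (0.0559 for GRK6 to 0.237 for VEZT), and without hESC G1 those on GORASP2 (0.0969) and PSME4 (0.0509). The VEZT difference was 2.67 with all libraries and 1.66 without either S library. With no intensity trend the calls on CNIH2 (0.051), VEZT (0.0782) and ZMIZ1 (0.0632) were lost, with no phase term those on VEZT (0.0545) and ZMIZ1 (0.0693), by edgeR those on VEZT (0.0577) and ZMIZ1 (0.0501), and under quantile normalisation those on VEZT (0.0531) and GORASP2 (0.0573).

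In 13 of 711 genes the most abundant region was one in all hESC libraries and another in all endoderm libraries. Distal shares of DUSP1, VEZT, CCDC88C and CNIH2, which are among them, are given above. ABCC3, an exporter of conjugated bile acids and drugs, had a distal region with 131, 49.98 and 67.9 in hESC and 4.83, 8.32 and 8.56 in endoderm, a fall of 3.27 ± 0.52 on the log2 scale (limma, adjusted p = 0.00996; without hESC G1/S 0.0542). The upstream region of ABCC3 had 28.7, 39.6 and 21.9 against 10.4, 23.3 and 20.5, so those groups overlap.

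C17orf80, with an AATAAA at both annotated ends matched by distance alone, had a distal share of 26.3%, 42.9% and 31.8% in hESC and 75%, 100% and 84.6% in endoderm. These rest on only 5, 3 and 14 distal reads in hESC and 33, 4 and 11 in endoderm. PELI1, a ubiquitin ligase of innate immune signalling, had a distal share of 35.7% ± 10.4 in hESC and 75.7% ± 5.88 in endoderm. KIAA1267, a subunit of the NSL histone acetyltransferase complex, had 33.8% ± 8.37 and 73.2% ± 12.9, and IKIP 40.5% ± 0.48 and 68.2% ± 8.35. Mean signals of the regions of PELI1, KIAA1267 and IKIP ran only from 6.33 (upstream, KIAA1267, endoderm) to 25.9 (distal, PELI1, endoderm). On so little signal a small SD, as for IKIP in hESC, does not measure counting error. ALKBH6, of the AlkB family of oxygenases, moved the other way, from 65.3% ± 4.47 to 42.0% ± 3.48, with regions 5579 bases apart, or 109% of its RefSeq length. The usage test passed in none of these 5 genes (limma, adjusted p between 0.117 and 0.278).

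**Figure D4:**
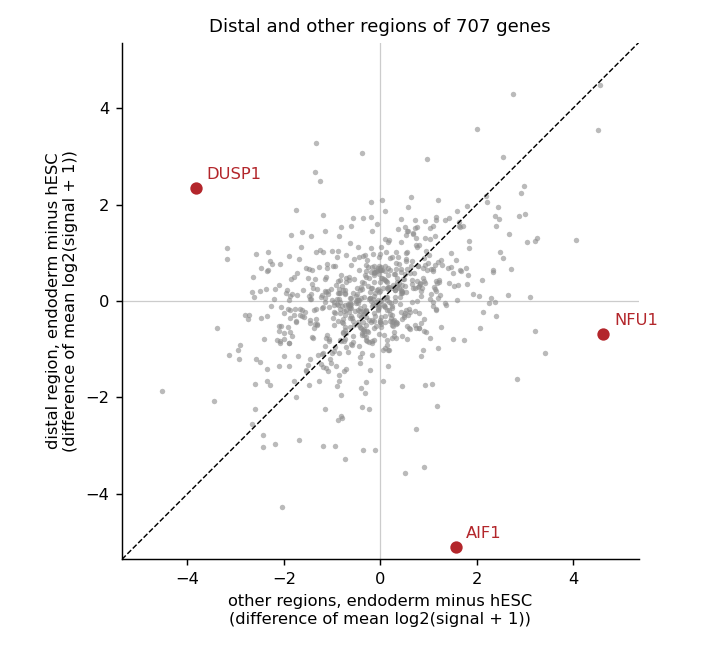
Difference between endoderm and hESC in mean log2(signal + 1) of the distal region (vertical) and of the other regions together (horizontal) for the 707 genes tested; the dashed line marks equal differences and the 3 genes that passed are in red. Most genes lie in a cloud along the line (both parts in the same direction in 436 genes), with NFU1 and AIF1 below it and DUSP1 above.

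Across the members the ends of a gene moved together only in part. The distal region and the others differed in the same direction between the types in 436 of 707 genes (61.7%), and the correlation of the 2 differences across genes was 0.35 (Pearson, n = 707 genes from the same 6 libraries, which are not independent replicates). The median usage difference was 0.21 on the log2 scale, toward distal regions in endoderm, with 406 genes (57.4%) above 0. Within the phases the median was 0.56 (G1), 0.07 (G1/S) and 0.06 (S). Distal usage was higher in endoderm in every phase in 205 genes and lower in every phase in 112.

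The distal shares of the 2 types did not overlap in 175 of 707 genes (24.8%), 118 of them with higher and 57 with lower shares in endoderm. The median difference moved with the coverage of the weaker part of the gene. It was 0.46 in the 336 genes where that part had a mean signal of at most 20, 0.11 in 208 genes between 20 and 50, -0.06 in 119 genes between 50 and 200 and -0.09 in 44 genes above 200. By distance between the regions the median was -0.20 in the 39 genes of at most 1000 bases, 0.13 in 254 genes up to 10000, 0.34 in 371 genes up to 100000 and 0.29 in 43 genes beyond.

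Read one region at a time, 177 of the 1479 member regions in the fit differed between endoderm and hESC (12.0%; limma, adjusted p under 0.05), against 14.5% of all 14657 regions. In each direction the members had 93 higher and 84 lower in endoderm, where 6.9% of all regions were higher and 7.6% lower. Of the distal regions 51 were higher and 39 lower of 711, and of the others 42 were higher and 45 lower of 768. The median log2 difference was 0.06 over distal regions, -0.17 over the other member regions and 0.02 over all regions. In 562 of the 711 genes no region was called; every region was higher in 17 genes and lower in 6, some but not all were higher in 56 and lower in 69, and DUSP1 had both. Without hESC G1/S 36 member regions were called, without endoderm G1/S 43, without hESC S 71 and without endoderm S 85. The share of all regions called in these fits is not given here, so the counts do not set the members apart from other regions.

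GATA4, a zinc finger factor of endoderm and heart, was the 1 member among the cell type markers, and all 3 of its regions rose together. The upstream region had 2.27, 1.04 and 2.36 in hESC and 32.5, 74.9 and 24.0 in endoderm, the middle one 4.54, 6.25 and 8.86 and 150, 230 and 161, and the distal one 7.57, 9.37 and 4.13 and 231, 136 and 156. The log2 differences were 3.82 ± 0.67, 4.60 ± 0.39 and 4.47 ± 0.41 (limma, adjusted p = 0.0141, 0.00221 and 0.00238), and no region overlapped between the types. The call on the upstream one was lost without hESC G1/S (adjusted p = 0.0644) or endoderm G1/S (0.0988). Its distal share was 52.6%, 56.2% and 26.9% in hESC, on 10, 9 and 7 distal reads, and 55.9%, 30.9% and 45.7% in endoderm (usage difference -0.09 ± 0.65, adjusted p = 0.948).

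The machinery that cuts and tails transcripts was measured through the most abundant region of each of its genes. Of 37 factors listed, 32 were in the table and 0 of 32 passed between endoderm and hESC (limma, background 14.5%), with a median log2 difference of -0.07. Of these factors 3 are themselves members. CPSF3L, also known as INTS11 and the nuclease of the Integrator complex, had a distal share of 94.0% ± 1.86 in hESC and 94.3% ± 1.99 in endoderm. PAF1, a subunit of an elongation complex tied to 3′ end formation, had 26.3% ± 15.5 and 33.0% ± 6.55, and SSU72 is given above.

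Among the factors, the subunits of the cleavage complexes covered a wide range of signal. CPSF1 had 1189 ± 176 in hESC and 1163 ± 336 in endoderm, and CPSF3, the nuclease, 1040 ± 156 and 719 ± 221 (limma, adjusted p = 0.222). NUDT21, the CFI subunit whose loss is known to favour upstream ends, had 49.4 ± 22.9 and 42.4 ± 26.7 (adjusted p = 0.698), and its partner CPSF6 57.7 ± 12.2 and 31.8 ± 8.03 (adjusted p = 0.138). CSTF2, which binds the downstream element, had 9.40 ± 3.74 and 7.52 ± 4.25, and FIP1L1 26.0 ± 4.59 and 60.2 ± 30.3 (adjusted p = 0.117).

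Of 24 genes listed for well studied alternative 3′ ends, 20 were in the table but only HMGA2 and PAK1 had several regions there. In HMGA2, a chromatin protein of embryonic cells with a long 3′ untranslated region, the distal share was 56.2%, 55.1% and 40.8% in hESC and 78.9%, 40.7% and 52.8% in endoderm. In PAK1, a kinase of the actin cytoskeleton, it was 38.1%, 60.4% and 79.9% in hESC and 64.3%, 51.9% and 47.2% in endoderm. The shares overlap in both genes and neither usage test passed (limma, adjusted p = 0.696 and 0.812). The distal region of HMGA2 shares 207 bases with a region without a gene name on the opposite strand. That neighbour had 38.6, 31.2 and 164 in hESC and 327, 79.9 and 140 in endoderm, and its part was not tested. In the most abundant region, CDC42, a small GTPase, rose from 29.4 ± 6.38 to 80.8 ± 4.13 (adjusted p = 0.0358) and FGF2, a growth factor that sustains hESCs, fell from 80.5 ± 30.4 to 24.1 ± 3.77 (adjusted p = 0.0291); the other 18 did not pass. These 2 of 20 stand against 14.5% of all regions called. The call on CDC42 was lost in each of the 6 fits without 1 library (adjusted p from 0.0586 without hESC G1 to 0.11 without hESC S or endoderm S), and that on FGF2 in each but the fit without endoderm G1 (up to 0.106, without hESC G1/S). Both were also lost with no intensity trend (0.0583 and 0.0511) and at a mean of at least 50 (0.0634 and 0.0581), and CDC42 by edgeR (0.0505).

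The comparison of phases asks whether the share of a gene's signal in the distal region differs between the libraries labelled G1, G1/S and S. For G1/S against G1, with cell type in the model, 0 of 707 genes passed (limma, 0% called; smallest adjusted p = 0.483), while 72 (10.2%) had an unadjusted p under 0.05, 25 with higher and 47 with lower distal usage in G1/S. By edgeR on whole reads 0 passed and 21 had an unadjusted p under 0.05. For S against G1, 0 of 707 passed (0% called; smallest adjusted p = 0.998), with 11 (1.56%) at an unadjusted p under 0.05 by limma and 0 by edgeR, which also called 0. Without hESC S, 7 genes passed for G1/S against G1 and 1 for S against G1, and without endoderm S 8 passed for G1/S against G1.

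**Figure D5:**
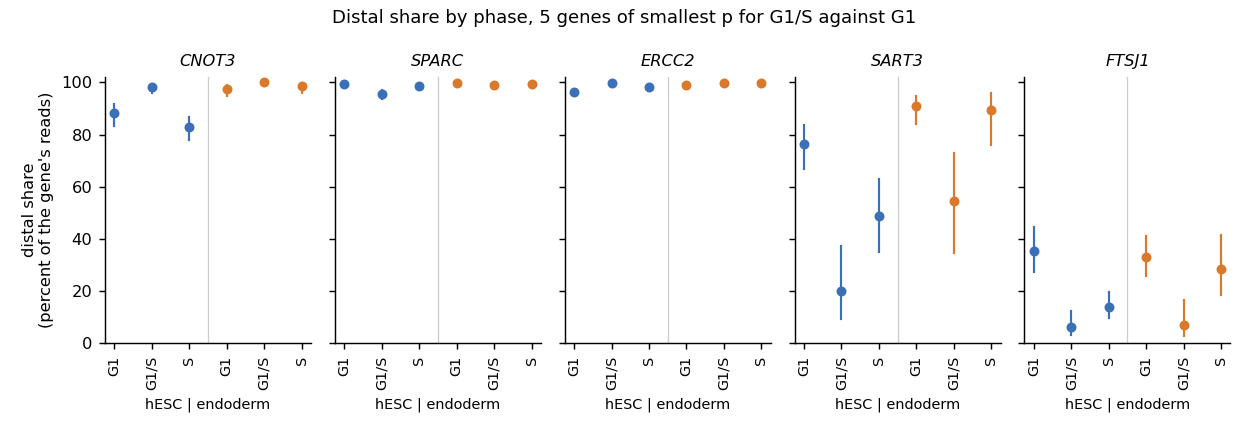
Distal share (percent of the gene's reads) in each library with its 95% Wilson interval, which covers counting error only, for the 5 genes of smallest p for G1/S against G1; hESC in blue, endoderm in orange. SART3 and FTSJ1 are lowest at G1/S in both cell types, while CNOT3, SPARC and ERCC2 vary above 82%. The genes were chosen by this same comparison, in which none passed.

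The 5 genes of smallest p for G1/S against G1 were CNOT3, SPARC, ERCC2, SART3 and FTSJ1, each with an adjusted p of 0.483 or more by limma. SART3, which recycles the U6 snRNP, had a distal share of 76.3%, 20% and 48.9% in hESC and 90.8%, 54.5% and 89.5% in endoderm. The G1/S library was the lowest in each cell type. In hESC G1/S the 95% Wilson interval, 9.51% to 37.3% on 30 reads, lies below that of hESC G1 (66.9% to 83.6%). It overlaps that of hESC S (35.0% to 63.0%). The gene was chosen by this same comparison, so the intervals, which cover counting error only, add no support. FTSJ1, a tRNA methyltransferase, had 35.5%, 6.19% and 13.9% in hESC and 33.1%, 7.02% and 28.6% in endoderm, again lowest at G1/S in both.

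The other 3 had 1 dominant end throughout. ERCC2, the XPD helicase of TFIIH, had a distal share of 96.5%, 99.8% and 98.3% in hESC and 99.2%, 99.8% and 99.7% in endoderm. SPARC, a secreted matrix glycoprotein, had 99.2%, 95.7% and 98.4% and 99.8%, 99.0% and 99.5%, lowest at G1/S in each type. Its distal region was higher in endoderm, at 3079, 1190 and 3011 against 697, 578 and 739 (limma, adjusted p = 0.0107; 0.0543 with no intensity trend), without overlap between the types. It shares 138 bases with a region without a gene name on the opposite strand. That neighbour had 15.1, 137 and 169 in hESC and 510, 283 and 430 in endoderm, and its part was not tested.

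For S against G1 the 5 genes of smallest p were BCAS4, VCAN, COL4A1, AGXT2L2 and HS1BP3, each with an adjusted p of 0.998 by limma. VCAN, the matrix proteoglycan versican, had a distal share of 96.0%, 81.0% and 89.9% in hESC and 99.0%, 95.8% and 88.2% in endoderm. AGXT2L2, a pyridoxal phosphate enzyme also known as PHYKPL, had 49.3%, 80.2% and 84.7% in hESC and 89.3%, 89.4% and 93.5% in endoderm. In hESC the interval at G1, 43.5% to 55.1% on 278 reads, lies below those at G1/S (76.6% to 83.4%) and S (82.5% to 86.6%). The 3 endoderm intervals run from 86.5% to 95.4% and overlap. AGXT2L2 was chosen by this same comparison, so the intervals, which cover counting error only, add no support. The distal region of AGXT2L2 shares 128 bases with a region of HNRNPAB on the opposite strand. That region had 565, 650 and 647 in hESC and 947, 875 and 1092 in endoderm. The distal region of VCAN shares 98 bases with a region without a gene name there. The part of these neighbours was not tested. COL4A1, a chain of basement membrane collagen, stayed at 98.6% or more in every library, BCAS4 at 94.5% or more and HS1BP3 at 88.3% or more.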

How the data were processed

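Libraries of 3′ ends, made with an oligo-dT primer from poly(A)-selected RNA and amplified by PCR per the labels' protocols, came from H9 hESCs and day 6 endoderm in 3 labelled phases, 1 library each. PCR reads without molecular identifiers are not independent molecules, so intervals cover counting error only. The submitters' processing notes name DESeq 1.5.24, Bowtie 0.12.7 and CASAVA 1.5 with hg18 and NCBI36; the sources used here do not state the role of each, or how regions were called and named. The authors deposited 1 signal value per region and library. At a tolerance of 1e-06, 100% of the deposited signal values were whole reads divided by 1 constant per library, although the table is named for a variance-stabilising transformation; the design assumed a log scale, and log2(signal + 1) was used. A fold on that scale understates change at low signal.

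Members share a name, chromosome and strand in at least 2 rows. Usage and region values were fitted with limma 3.58.1 in R 4.3.3 (terms for type and phase, intensity trend, 2 residual degrees of freedom) and adjusted by Benjamini-Hochberg over 707 genes or 14657 regions with log2(signal + 1) of at least 1 in at least 3 libraries, at 0.05. The phase term assumes equal phase effects in hESC and endoderm. Alternatives used edgeR 4.0.16 and DESeq2 1.42.0 on whole reads, other filters, and each library left out. With 1 library left out, the other library of its phase is fitted exactly and adds nothing to the difference between types. Fits without either library of a phase therefore give the same difference and are not separate checks. Scripts were tested on simulated data.

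Genes were named by rule: up to 10 per direction of usage (past the threshold by size, then by p), those with regions called in opposite directions, the 10 largest switches of the most abundant region, 5 by p per phase comparison, extremes of region number, signal and distance, and members of the lists. Members, rules and lists were chosen with earlier results of these data known. RefSeq lengths (GRCh38.p14) were matched by symbol for 703 of 711 genes; no genome of the deposited build was used, so exon or intron is not given. All columns of values were used.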

Additional observations from a re-analysis of the deposited data

Results flagged for a closer look

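The median of the members' distal shares differed between phases in opposite directions in the 2 cell types, a difference that was not tested, since each type and phase has 1 library. From G1 to G1/S the median distal share of the 711 genes was 1.56 percentage points higher in hESC and changed by -7.24 points in endoderm. From G1 to S it was 3.19 points higher in hESC and changed by -3.74 points in endoderm. With the reads of all members pooled, the distal share was 4.32 points higher in S than in G1 in hESC and changed by -2.33 points in endoderm, but from G1 to G1/S it was higher in both, at 69.6% and then 73.3% in hESC and 71.1% and then 72.3% in endoderm. Endoderm G1 had the highest median of the 6 libraries, and the endoderm libraries also differed in depth, from 5389666 reads in G1 to 3205025 in G1/S and 2502792 in S; the part of depth in these values was not tested.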

How the results depend on the processing

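Genes whose usage passed between endoderm and hESC numbered 3. Of them AIF1, DUSP1 and NFU1 all remained with only the 2 most abundant regions of a gene (17 genes), without a phase term (6) and without both G1/S libraries (13). There were 5 with regions within 10 kb (DUSP1 among them) and 0 with both parts at a mean of at least 50. In alternatives chosen after seeing the data, 1 gene, NFU1, passed where regions lay no further apart than the RefSeq gene length, whatever their position. Where no region overlaps one on the opposite strand 1 gene passed, NFU1 again. With 1 library left out the count ran from 0 (without hESC G1/S, or without endoderm G1) to 9 (without endoderm S). For G1/S against G1 it ran from 0 to 8, and for S against G1 from 0 to 1. The median usage difference of 0.21 became -0.066 with both parts at a mean of at least 50, and lay between 0.05 and 0.29 otherwise. Called member regions, 177, became 88 at a mean of at least 50, 110 with no trend on intensity and 35 when both G1/S libraries were left out. They ran from 36 to 213 with 1 library left out. Without the share of all regions called in the same fits, these counts cannot be read as changes particular to the members. The causes were not tested, beyond fewer genes or libraries entering some fits. No named gene or region changed direction: usage calls were the same in 518 comparisons with an alternative, gained in 37 and lost in 10, and region calls the same in 313 and lost in 124. The phase term already sets the 2 types side by side within each phase; no pairing by replicate number was possible, as each type and phase has 1 library. Many upstream regions rest on few reads, so small shares were not detectable at this depth, most of all in endoderm S, where 3 reads are worth 5.13.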
